A study of Mus musculus with 12 samples.

Results

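The levels of 10 genes that tune WNT signalling from outside or inside the cell were followed across the 4 groups of a mouse heart study: Sfrp1, Sfrp2, Sfrp4, Sfrp5 and Frzb (the secreted frizzled-related proteins), Dkk2 and Dkk3 (the Dickkopf family), Nkd1 and Nkd2 (the naked cuticle proteins) and Axin2. The genes are 10 of the 55401 genes in the count table, picked by gene symbol. All 10 were among the 15764 genes with enough reads to be tested. Nkd2 was included because its level was higher after pressure overload in both genotypes, so its changes from sham to TAC are given as a description with no test. The hearts came from Prkca T497A mice after TAC, wild type (WT) mice after TAC, Prkca T497A mice after a sham operation and WT mice after a sham operation, with 3 libraries in each group. Prkca encodes protein kinase C alpha, and the T497A allele replaces a threonine of its activation loop with alanine. TAC, transverse aortic constriction, narrows the aorta against a 27-gauge needle and loads the left ventricle with pressure. Surgery was done at 10 weeks of age and left ventricles were taken 5 weeks later, when the mice were 15 weeks old. The labels name no strain, sex, Cre driver or zygosity, and do not state whether separate mice gave the libraries of a group, so the p-values reflect spread among libraries that may be technical.

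WNT ligands bind Frizzled receptors together with the co-receptors LRP5 and LRP6, and in the canonical branch this stabilises beta-catenin, which enters the nucleus and works with TCF/LEF factors to switch on target genes. Secreted frizzled-related proteins carry a cysteine-rich domain like that of Frizzled and can bind WNT ligands outside the cell, while Dickkopf proteins of the Dkk1 and Dkk2 kind bind LRP5 and LRP6. Axin2 is a scaffold of the complex that degrades beta-catenin and is itself a widely used beta-catenin target, and the naked cuticle proteins bind Dishevelled inside the cell. In the heart this pathway is low in the healthy adult and has been studied after injury, in fibroblasts among other cells.

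Library totals ran from 36862004 to 46898344 counts. Levels are given as CPM, each gene's share of the library after TMM scaling. Mitochondrial genes took 24.6 to 26.1% of counts in T497A TAC libraries, 19.6 to 20.9% in WT TAC, 28.3 to 30.9% in T497A sham and 25.1 to 29.0% in WT sham. The labels give the cell type as cardiomyocyte, but the protocol describes RNA from cardiac tissue with no sorting. Cardiomyocyte markers were abundant, with Myh6 averaging from 15700 to 24000 CPM over the groups, and fibroblast and endothelial markers were present too (Dcn from 507 to 788 CPM, Pecam1 from 156 to 174 CPM). Prkca itself lay between 38.1 and 62.3 CPM in every library. A codon change need not alter this count, so it does not check the genotype. Each title carries a number whose meaning the labels do not give. It was above 100 in all 3 T497A TAC libraries and in replicate 3 alone of each other group. Results of the genes with a term for that number are given after the genotype comparisons.

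The start regions of 4 of the genes are shown because these are Nkd2 and the 3 other genes with the widest range of group means of log2 CPM: Sfrp2 and Frzb, whose levels were highest after TAC in WT hearts, and Sfrp5, whose levels were lower after TAC. Each sequence is the RefSeq promoter window on GRCm38.p6, written 5′ to 3′ on the gene's own strand. It runs from 250 bases before the start used for that window to 50 bases after it. Capitals mark the GC box GGGCGG, a binding word of SP-family factors, found on either strand. For Frzb the start used differs from that in the annotation used for positions here, where the gene begins at 80447625. Most of the Frzb window, its GC box included, thus lies inside the gene.
Nkd2 (chr13:73847582-73847881, minus strand): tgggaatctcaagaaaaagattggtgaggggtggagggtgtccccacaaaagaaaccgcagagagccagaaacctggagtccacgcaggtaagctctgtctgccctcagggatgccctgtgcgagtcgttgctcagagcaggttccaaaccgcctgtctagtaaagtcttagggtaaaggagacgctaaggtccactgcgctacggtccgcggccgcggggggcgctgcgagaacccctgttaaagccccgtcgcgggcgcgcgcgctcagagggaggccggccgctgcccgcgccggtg
Sfrp2 (chr3:83766071-83766370, plus strand): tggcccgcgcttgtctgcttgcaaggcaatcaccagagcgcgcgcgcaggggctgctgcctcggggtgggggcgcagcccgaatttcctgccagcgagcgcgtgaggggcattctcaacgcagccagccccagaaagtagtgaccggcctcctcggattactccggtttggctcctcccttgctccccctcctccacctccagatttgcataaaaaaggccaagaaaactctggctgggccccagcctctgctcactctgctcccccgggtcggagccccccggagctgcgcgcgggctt
Frzb (chr2:80447347-80447646, minus strand): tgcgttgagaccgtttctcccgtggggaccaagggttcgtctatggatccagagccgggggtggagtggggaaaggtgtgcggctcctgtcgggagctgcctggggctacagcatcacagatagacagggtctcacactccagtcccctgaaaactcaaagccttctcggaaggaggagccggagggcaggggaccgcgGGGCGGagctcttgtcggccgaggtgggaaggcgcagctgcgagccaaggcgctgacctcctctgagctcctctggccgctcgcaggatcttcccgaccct
Sfrp5 (chr19:42202203-42202502, minus strand): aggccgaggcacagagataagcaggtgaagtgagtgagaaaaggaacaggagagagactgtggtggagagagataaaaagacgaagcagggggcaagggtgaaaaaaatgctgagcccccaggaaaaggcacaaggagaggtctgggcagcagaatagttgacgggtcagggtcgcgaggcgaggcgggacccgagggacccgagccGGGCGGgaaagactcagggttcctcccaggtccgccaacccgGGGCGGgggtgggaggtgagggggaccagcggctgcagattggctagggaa

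A window was found for 7 of the 10 genes. That of Nkd1 (88527383 to 88527682) lies inside the gene, which begins at 88521354 in the annotation used for positions. None of the 7 held a TCF/LEF word (CTTTG followed by AA, AT, TA or TT, either strand), which 16.9% of all 32851 RefSeq windows of that length hold. The GC box was present in 4 of 7 (Frzb, Sfrp5, Dkk2 and Axin2), against 35.7% of all windows. The 4 windows printed hold more CG dinucleotides than the median window, with 26 in Nkd2, 22 in Sfrp2, 20 in Frzb and 15 in Sfrp5, against 7. The share of all windows with fewer was 83.1% for Nkd2, 76.9% for Sfrp2, 73.5% for Frzb and 65.4% for Sfrp5. A word in such a window is a description of the sequence, and its absence says only that these letters are not there.

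Sfrp1 (chromosome 8, 23411502 to 23449632, plus strand, GRCm38, as for every position given) was on average the most abundant secreted frizzled-related gene per kilobase in every group, and it rose after TAC in WT hearts. It had 18.3, 27.6 and 22.1 CPM in T497A TAC libraries, 47.9, 39.8 and 46.6 in WT TAC, 17.4, 21.7 and 17.4 in T497A sham libraries and 18.6, 17.1 and 19.7 in WT sham. Every WT TAC library lay above every other library, and the T497A TAC libraries overlapped the T497A sham libraries. The TAC effect was 0.27 ± 0.14 on the log2 scale (SE) in T497A hearts (adjusted p = 0.481, quasi-likelihood test of edgeR with Benjamini-Hochberg adjustment across all genes tested, as for every adjusted p given here). In WT hearts it was 1.28 ± 0.14, a 2.43-fold rise (adjusted p = 3.93e-05). After TAC, T497A hearts had 1.98-fold less Sfrp1 than WT hearts (log2 fold change -0.98 ± 0.14, adjusted p = 0.00142), while after sham the genotypes differed by 0.03 ± 0.14 (adjusted p = 1). As this is bulk tissue, fewer cells of a type and less RNA per cell cannot be told apart, here and in all that follows.

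Sfrp2 (chromosome 3, 83766321 to 83774316, plus strand), known in the heart as a fibroblast product that acts on collagen processing as well as on WNT, had the largest fitted TAC effect of the family in WT hearts. Its levels were 3.15, 6.45 and 3.41 CPM in T497A TAC libraries, 9.67, 13.0 and 13.9 in WT TAC, 1.67, 3.22 and 2.09 in T497A sham libraries and 2.01, 2.23 and 1.16 in WT sham. The WT TAC libraries again stood above all others. The rise in WT hearts was 6.70-fold (log2 fold change 2.74 ± 0.34, adjusted p = 0.000152), and the change in T497A hearts was 0.90 ± 0.33 (adjusted p = 0.315). After TAC the level in T497A hearts was 2.81-fold lower than in WT hearts (-1.49 ± 0.32, adjusted p = 0.015). That last call was lost when WT TAC replicate 3, T497A TAC replicate 1 or T497A TAC replicate 3 was left out (adjusted p = 0.0656, 0.0618 and 0.0655). Sfrp2 overlaps Gm26771 on the opposite strand, and whether counting used strand is not given in the sources used here.

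Frzb (chromosome 2, 80411970 to 80447625, minus strand), also called sFRP3, followed the same order of groups. Its levels were 17.4, 13.5 and 9.64 CPM in T497A TAC libraries, 37.8, 23.9 and 26.2 in WT TAC, 5.62, 10.5 and 5.85 in T497A sham libraries and 5.12, 6.79 and 4.36 in WT sham. WT TAC libraries were above all others, and among the T497A libraries the lowest TAC value fell below the highest sham value. Frzb rose 5.38-fold after TAC in WT hearts (log2 fold change 2.43 ± 0.31, adjusted p = 0.000389), and the T497A effect was 0.89 ± 0.30 (adjusted p = 0.301). T497A hearts had 2.17-fold less Frzb than WT hearts after TAC (-1.11 ± 0.30, adjusted p = 0.0449). This call was the least steady of those between genotypes: leaving out any library other than T497A sham replicates 1 and 2 lost it, with adjusted p up to 0.139, as did no low-count filter (0.109) and a fit of only the TAC groups (0.0584).

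Sfrp5 (chromosome 19, 42197971 to 42202252, minus strand), described in mouse as an adipokine and as an inhibitor of non-canonical WNT5A signalling, moved the opposite way at a low level. It had 0.535, 0.725 and 0.463 CPM in T497A TAC libraries, 0.526, 0.370 and 0.513 in WT TAC, 0.995, 1.28 and 1.72 in T497A sham libraries and 1.52, 1.61 and 2.09 in WT sham. All 6 TAC libraries were below all 6 sham libraries. The fall in WT hearts was 3.68-fold (log2 fold change -1.88 ± 0.32, adjusted p = 0.000761), and the T497A effect was -1.21 ± 0.31 (adjusted p = 0.159). Between genotypes after TAC the difference was 0.29 ± 0.32 (adjusted p = 0.653).

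Sfrp4 (chromosome 13, 19623104 to 19632994, plus strand) was near the lower limit of what these libraries can resolve. Its raw counts were 10, 30 and 14 in T497A TAC libraries, 14, 13 and 16 in WT TAC, 6, 2 and 6 in T497A sham libraries and 2, 8 and 8 in WT sham. In each genotype the TAC libraries were above the sham libraries. Neither genotype passed the test by itself (1.87 ± 0.65 in T497A, adjusted p = 0.285, and 1.11 ± 0.64 in WT, adjusted p = 0.232). Averaged over genotypes Sfrp4 rose 2.80-fold (log2 fold change 1.49 ± 0.46, adjusted p = 0.0308). Without T497A TAC replicate 2 that effect was 1.18 (adjusted p = 0.108), and leaving out WT TAC replicate 1 or 3, T497A sham replicate 2 or 3, or WT sham replicate 1 or 2 also ended the call, as did a term for the title number (1.33, adjusted p = 0.0796).

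**Figure D1:**
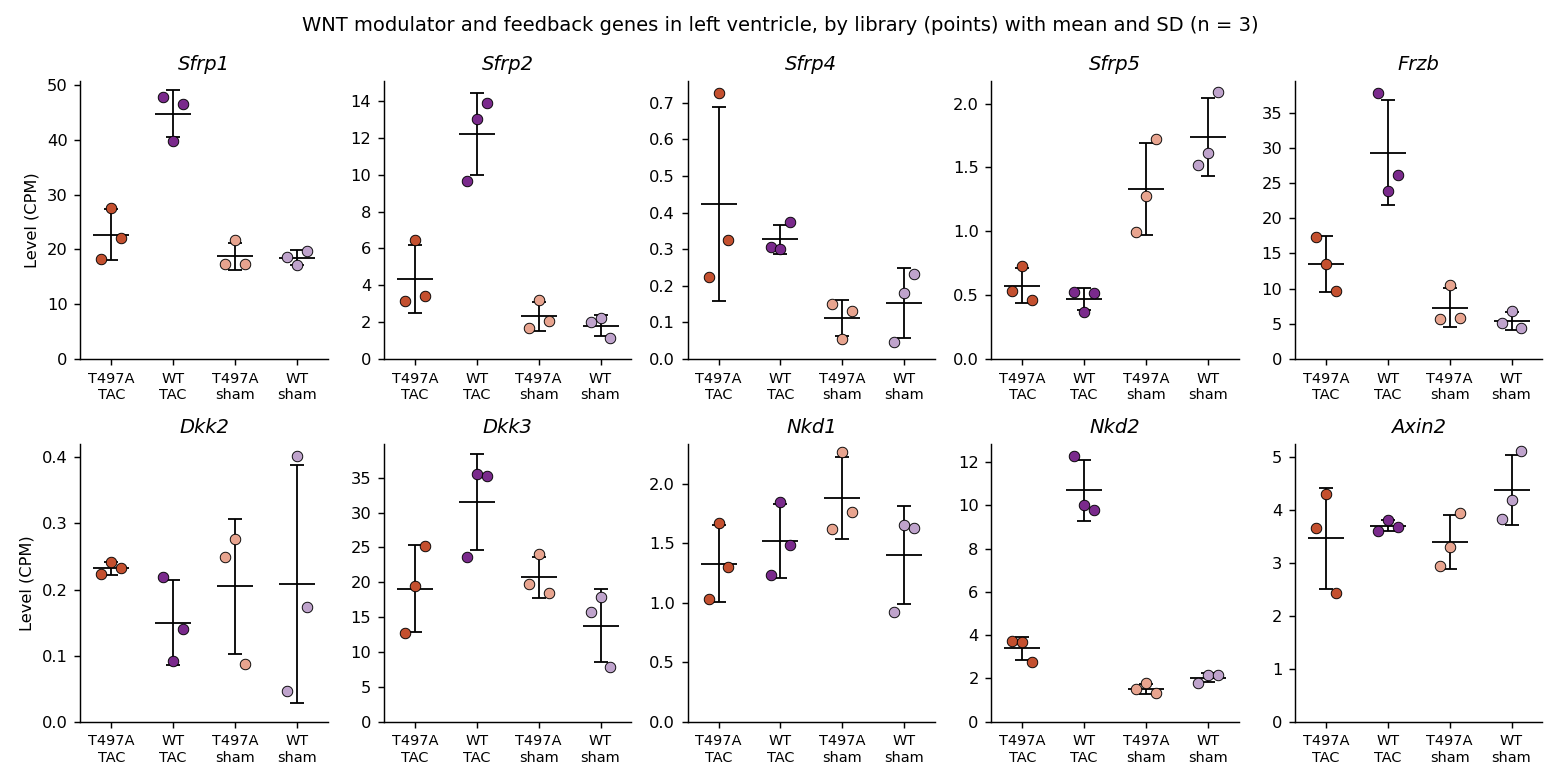
Level in CPM of each of the 10 genes in every library (points), with the group mean (long line) and SD (n = 3), in T497A TAC, WT TAC, T497A sham and WT sham hearts, each panel on its own linear axis from 0. Sfrp1, Sfrp2, Frzb and Nkd2 are highest in all 3 WT TAC libraries, and Sfrp5 is lowest in the 6 TAC libraries. Axin2 runs from 2.43 to 5.11 CPM and Nkd1 from 0.923 to 2.27 CPM over all libraries.

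Per kilobase of exon, which allows levels of different genes to be compared, the summed level of the 5 secreted frizzled-related genes was 11.4, 14.0 and 9.94 CPM per kb in T497A TAC libraries, 27.5, 22.8 and 25.5 in WT TAC, 7.06, 10.4 and 7.69 in T497A sham libraries and 7.58, 7.93 and 7.55 in WT sham. The sum was therefore highest in the WT TAC libraries, without overlap with any other library. The make-up of that sum differed too. As a mean of the shares in single libraries, Sfrp1 made up 44.2% of the sum in T497A TAC hearts, 40.5% in WT TAC, 52.0% in T497A sham and 55.0% in WT sham. Frzb made up 35.7% in T497A TAC hearts, 35.5% in WT TAC, 26.4% in T497A sham and 21.7% in WT sham. Sfrp2 made up 16.7% in T497A TAC hearts, 22.7% in WT TAC, 12.7% in T497A sham and 10.8% in WT sham. Sfrp5 made up 2.55% in T497A TAC hearts, 0.972% in WT TAC, 8.55% in T497A sham and 11.9% in WT sham. After sham in WT hearts the mean share of Sfrp5 was above that of Sfrp2, but their ranges overlapped (10.6 to 14.6% against 7.14 to 13.1%). After TAC in WT hearts Sfrp5 was the smaller in every library (0.853 to 1.06% against 16.3 to 26.5%). These shares are a description with no test.

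**Figure D2:**
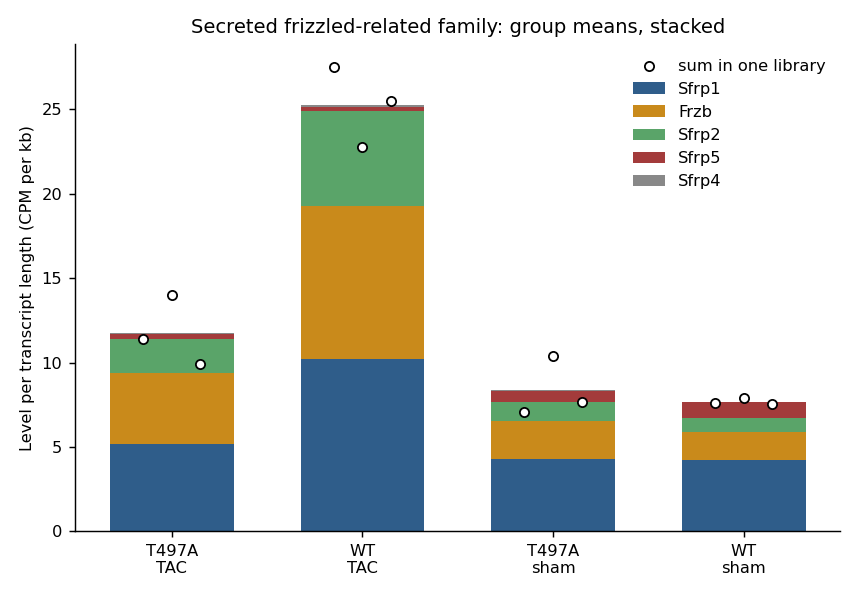
Mean level per kilobase of exon (CPM per kb) of the 5 secreted frizzled-related genes, stacked by gene, in T497A TAC, WT TAC, T497A sham and WT sham hearts, with circles for the sum in each library. The WT TAC sums of 22.8 to 27.5 lie above all others, and the Sfrp5 layer is thickest in the sham groups.

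Dkk3 (chromosome 7, 112116017 to 112159057, minus strand) is a divergent Dickkopf protein whose action on LRP co-receptors is disputed. By mean level per kilobase it was the most abundant member in T497A hearts, at 5.68 CPM per kb after TAC and 6.17 after sham. After TAC, however, the T497A range of Sfrp1, 4.19 to 6.31, lay within that of Dkk3, 3.78 to 7.5. Its levels were 12.7, 19.4 and 25.2 CPM in T497A TAC libraries, 23.6, 35.6 and 35.3 in WT TAC, 19.7, 24.0 and 18.5 in T497A sham libraries and 15.7, 17.9 and 7.90 in WT sham. The WT groups did not overlap, whereas the T497A groups did. Dkk3 rose 2.27-fold after TAC in WT hearts (log2 fold change 1.18 ± 0.33, adjusted p = 0.0268), and the T497A effect was -0.12 ± 0.33 (adjusted p = 0.93). The WT call was lost without WT sham replicate 1, WT sham replicate 3, WT TAC replicate 2 or WT TAC replicate 3 (adjusted p = 0.0589, 0.052, 0.0764 and 0.0836), with no low-count filter (0.067) and with only the WT groups in the fit (0.0591). After sham, all 3 T497A libraries were above all 3 WT libraries, and the difference of 0.58 ± 0.33 did not pass the test (adjusted p = 1).

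Dkk2 (chromosome 3, 132085292 to 132180304, plus strand), an antagonist or weak agonist of LRP6 depending on its partner Kremen, was barely detected. Its raw counts were 10, 10 and 10 in T497A TAC libraries, 10, 4 and 6 in WT TAC, 10, 10 and 4 in T497A sham libraries and 2, 18 and 6 in WT sham. The WT sham libraries alone spanned the values of all others. No comparison called it. The TAC effects were 0.20 ± 0.69 in T497A hearts and -0.46 ± 0.71 in WT hearts, so a change of the size seen for Sfrp1 in WT hearts would not have been detectable at this depth. All 12 counts of Dkk2 and of Sfrp5, and 11 of the 12 of Sfrp4, were even numbers. Of all counts from 6 to 20, over all genes and libraries, 75.5% were even, with 74.4 to 76.9% in single libraries, so a low count may stand for fewer separate fragments than its size. The cause is not given in the sources used here, and halving every count, added after this was seen, changed no call of the 10 genes.

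Nkd2 (chromosome 13, 73818534 to 73847631, minus strand), an intracellular antagonist that binds Dishevelled, was the gene chosen for its response to TAC. It had 3.73, 3.67 and 2.78 CPM in T497A TAC libraries, 12.3, 10.0 and 9.79 in WT TAC, 1.49, 1.78 and 1.32 in T497A sham libraries and 1.80, 2.14 and 2.15 in WT sham. In each genotype every TAC library was above every sham library. The level was 2.22-fold higher after TAC in T497A hearts (log2 fold change 1.15 ± 0.18) and 5.27-fold higher in WT hearts (2.40 ± 0.18). These TAC values chose the gene and carry no test. Its genotype contrasts were not named in the choice, but they are built from the same levels. Their p-values are therefore not independent of the choice. After TAC, T497A hearts had 3.16-fold less Nkd2 than WT hearts (-1.66 ± 0.17, adjusted p = 0.000337), with no overlap. After sham the T497A libraries were also all below the WT libraries, by a smaller amount that did not pass the test (-0.41 ± 0.19, adjusted p = 1). Nkd2 overlaps Gm8062 on the opposite strand, so some reads may belong to that gene.

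Its paralog Nkd1 (chromosome 8, 88521354 to 88594884, plus strand), a beta-catenin target in many tissues, did not share this pattern. It averaged 1.33 ± 0.322 CPM in T497A TAC hearts, 1.52 ± 0.311 in WT TAC, 1.88 ± 0.346 in T497A sham and 1.40 ± 0.414 in WT sham (SD, n = 3). Its libraries overlapped between groups in each of the 4 pairwise comparisons. The TAC effect was -0.50 ± 0.29 in T497A hearts and 0.12 ± 0.29 in WT hearts (adjusted p = 0.547 and 0.806). Over the 12 libraries, which fall into 4 groups, the log2 levels of Nkd1 and Nkd2 correlated at r = -0.14, against 0.94 for Sfrp1 and Nkd2. Nkd1 shares its locus with Gm45496 on the same strand.

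Axin2 (chromosome 11, 108920349 to 108950783, plus strand), the feedback scaffold most often read as a gauge of beta-catenin activity, was called in no comparison. It had 3.66, 4.30 and 2.43 CPM in T497A TAC libraries, 3.59, 3.81 and 3.68 in WT TAC, 2.94, 3.30 and 3.94 in T497A sham libraries and 3.83, 4.18 and 5.11 in WT sham. The WT TAC libraries lay just below the WT sham libraries, and the other groups overlapped. The TAC effect was 0.03 ± 0.21 in T497A hearts (adjusted p = 0.974) and -0.24 ± 0.21 in WT hearts (adjusted p = 0.439). T497A and WT hearts differed by -0.09 ± 0.21 after TAC and by -0.36 ± 0.21 after sham (adjusted p = 0.839 and 1). Axin2 lies 576 kb from Prkca, the edited gene, on the same chromosome. It overlaps Gm11670 on the opposite strand.

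Counted together, 0 of the 9 genes other than Nkd2 passed the test after TAC in T497A hearts, where 0.114% of all tested genes did. The adjustment sets a different cutoff on the unadjusted p in each genotype. By edgeR's quasi-likelihood test, Sfrp5 did not pass in T497A hearts at an unadjusted p of 0.00169. Dkk3 passed in WT hearts at 0.00538. At an unadjusted p under 0.05 there were 4 of 9, against 11.7% of all tested genes. DESeq2 called 2 of 9 (Sfrp5, adjusted p = 0.0357, and Frzb, adjusted p = 0.0498), against 1.88% of all tested genes, and limma-voom called 0. In WT hearts 5 of 9 changed, with Sfrp1, Sfrp2, Frzb and Dkk3 higher and Sfrp5 lower, where 25% of all tested genes did (12.3% higher and 12.6% lower). The median log2 fold change of the 9 was 0.20 in T497A hearts and 1.11 in WT hearts, with all tested genes near 0 in each (0.01 in each). Averaged over genotypes 5 of 9 changed, against 22.4% of all tested genes (11.2% in each direction). The libraries of the 2 surgeries did not overlap for 2 of the 9 genes in T497A hearts (Sfrp4 and Sfrp5), against 15.4% of all tested genes, and for 7 of 9 in WT hearts, against 42.2%. The members were assembled with TAC results of these hearts in view, so these counts describe them and are not read further. The TAC comparison in WT hearts and the genotype comparison after TAC share the WT TAC libraries.

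**Figure D3:**
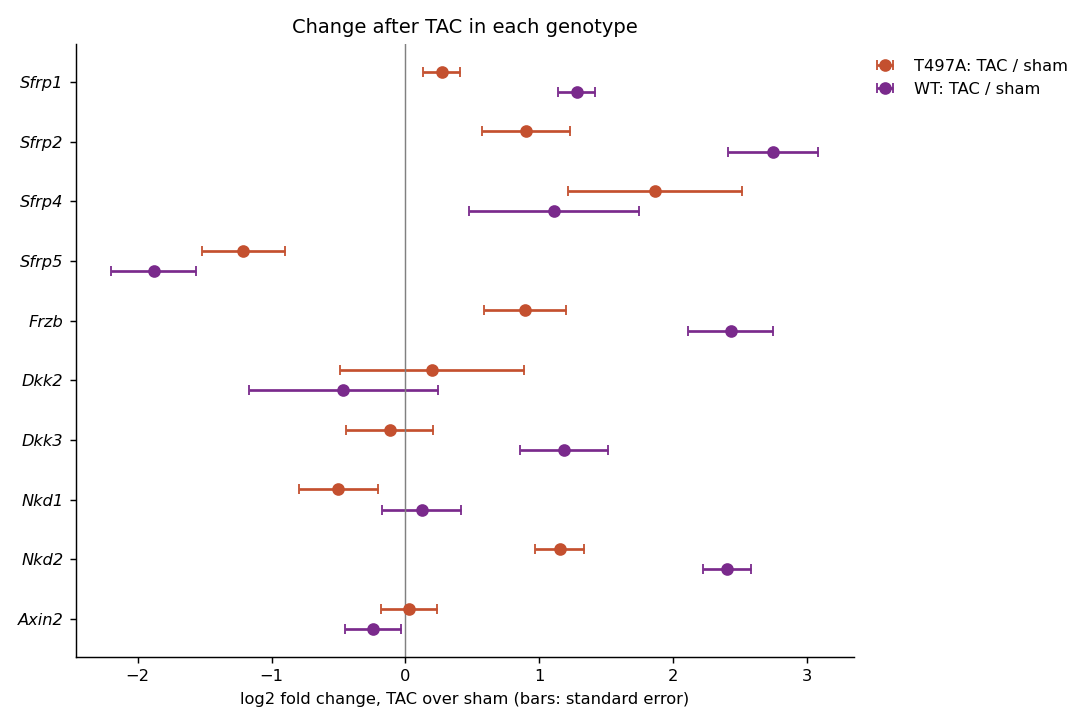
Log2 fold change of TAC over sham for each gene in T497A hearts (orange, upper) and WT hearts (purple, lower), with bars for the standard error; the vertical line marks no change. Sfrp1, Sfrp2, Frzb, Dkk3 and Nkd2 lie farther to the right in WT hearts, Sfrp5 lies to the left in both genotypes, and Axin2 is close to 0 in both.

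Between genotypes after TAC, 4 of 10 genes differed, all lower in T497A hearts (Sfrp1, Sfrp2, Frzb and Nkd2), where 8.7% of all tested genes differed and 4.06% were lower. Nkd2 is in this count although its TAC levels chose it. After sham, 0 of 10 differed, where 0.0254% of all tested genes did. At an unadjusted p under 0.05 there was 1 of 10 (Nkd2), against 3.03% of all tested genes, and DESeq2 and limma-voom each called 0. The libraries of the genotypes did not overlap for 5 of 10 genes after TAC (the 4 called and Dkk2), against 28% of all tested genes, and for 2 of 10 after sham (Dkk3 and Nkd2), against 8.21%. Dkk2 was the higher in T497A hearts, unlike the 4 called. Its closest libraries, replicate 1 of each TAC group, had 0.223 and 0.219 CPM, each from a raw count of 10. Whether the TAC effect itself depended on genotype was tested by the interaction, which subtracts the effect of TAC in WT hearts from that in T497A hearts. It called 1 of 9 genes, Sfrp1 (-1.01 ± 0.19, adjusted p = 0.0258), where 1.57% of all tested genes were called and 0.679% were lower. The same difference was -1.84 ± 0.47 for Sfrp2 (adjusted p = 0.0714), -1.54 ± 0.43 for Frzb (adjusted p = 0.104), -1.30 ± 0.46 for Dkk3 (adjusted p = 0.195) and 0.27 ± 0.30 for Axin2 (adjusted p = 0.714). The Sfrp1 call was lost when any of 7 libraries was left out (T497A TAC replicates 1 and 3, WT TAC replicates 1 and 3, T497A sham replicate 2, WT sham replicates 1 and 3), with adjusted p up to 0.0734. Over all tested genes, leaving out 1 library moved the share called in the interaction from 0.246% (without WT sham replicate 3) up to 3.19% (without T497A TAC replicate 2). It moved the share called between genotypes after TAC from 2.86% (without WT TAC replicate 3) up to 8.96% (without T497A TAC replicate 2).

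All 3 T497A TAC libraries, and only replicate 3 of each other group, have a title number above 100. WT TAC replicate 3 had 46.6 CPM of Sfrp1, 13.9 of Sfrp2, 26.2 of Frzb and 9.79 of Nkd2, all above the 3 T497A TAC libraries. With a term for that number in the model, added after its pattern was seen, Sfrp1 and Nkd2 remained lower in T497A hearts after TAC (-0.998 and -1.57, adjusted p = 0.0089 and 0.00257). The p-value of Nkd2 is again not independent of its choice by TAC levels. Sfrp2 and Frzb no longer passed (-1.38 and -0.86, adjusted p = 0.0617 and 0.169), nor did the Sfrp1 interaction (-1.03, adjusted p = 0.0648) or the average TAC effect of Sfrp4 (1.33, adjusted p = 0.0796). What the number stands for cannot be told from the labels.

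Markers of several cell types changed with TAC in WT hearts, beside the secreted members. For this and the lists that follow, 12.3% of all tested genes rose and 12.6% fell after TAC in WT hearts, and 0.114% were called in T497A hearts. Between genotypes after TAC 8.7% were called. Of 13 fibroblast markers, 7 rose and 1 fell after TAC in WT hearts and 0 were called in T497A hearts. After TAC 4 of the 13 were lower and 1 was higher in T497A than in WT hearts. The 13 summed to 2350 to 2500 CPM in T497A TAC libraries, 2660 to 3130 in WT TAC, 1900 to 2260 in T497A sham and 1950 to 1980 in WT sham. Of 8 markers of activated fibroblasts, 6 rose after TAC in WT hearts, 0 were called in T497A hearts, and 5 were lower in T497A than in WT hearts after TAC. Their sums were 277 to 503 CPM in T497A TAC libraries, 997 to 1230 in WT TAC, 187 to 271 in T497A sham and 173 to 192 in WT sham, and no marker of either list averaged 0 in any group. Of the 13 fibroblast markers, Dcn, Lum, Col15a1, Vim, Mfap5, Pi16 and Pdgfrl rose in WT hearts and Scara5 fell. Those that did not pass there were Pdgfra and Tcf21 (0.35 ± 0.18 and 0.27 ± 0.23), Dpt, Gsn and Ddr2. Averaged over genotypes Pdgfra passed (0.39 ± 0.12, adjusted p = 0.0434) and Tcf21 did not (adjusted p = 0.407). Of 8 macrophage markers 5 rose and 0 fell after TAC in WT hearts, and their sums were 162 to 218 CPM in T497A TAC libraries, 215 to 251 in WT TAC, 161 to 176 in T497A sham and 144 to 160 in WT sham. After TAC 1 of the 8 was lower in T497A than in WT hearts. Of 4 erythrocyte markers 3 rose in WT hearts, with sums of 133 to 227 CPM in T497A TAC libraries, 208 to 298 in WT TAC, 168 to 191 in T497A sham and 118 to 177 in WT sham. Of 8 cardiomyocyte markers 7 fell after TAC in WT hearts. Of the markers listed here, the interaction called Mfap5, Scara5 and the cardiomyocyte marker Ryr2, where it called 1.57% of all tested genes. Their values were -2.05, 0.94 and 0.78 (adjusted p = 0.0213, 0.0367 and 0.0432). The part of cell make-up in the results for the WNT genes was not tested.

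The rest of the pathway was read from lists of genes by role, with the same fit. Of 19 WNT ligand genes, 8 had enough reads to be tested. After TAC in T497A hearts 0 were called, and in WT hearts only Wnt5a, a mostly non-canonical ligand, passed, and it fell. It averaged 15.6 ± 1.06 CPM in T497A TAC hearts, 11.0 ± 1.81 in WT TAC, 15.6 ± 0.302 in T497A sham and 14.7 ± 1.68 in WT sham (SD, n = 3). The WT effect was -0.42 ± 0.12 (adjusted p = 0.022), and after TAC Wnt5a was higher in T497A than in WT hearts (0.51, adjusted p = 0.0224). The WT TAC effects of Wnt9a, Wnt5b and Wnt11 were 0.23 ± 0.21, 0.21 ± 0.26 and -0.33 ± 0.19, and none passed the test.

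Several receptor genes rose with TAC in WT hearts. Of 16 tested receptors and co-receptors (18 listed), 6 rose and 0 fell after TAC in WT hearts, and 0 were called in T497A hearts. Fzd1, a Frizzled receptor, averaged 11.3 ± 2.45 CPM in T497A TAC hearts, 16.7 ± 2.78 in WT TAC, 8.57 ± 1.01 in T497A sham and 8.52 ± 0.439 in WT sham. Its WT effect was 0.97 ± 0.16 (adjusted p = 0.00066). Ror2, a receptor for Wnt5a, rose by 0.96 ± 0.26 (adjusted p = 0.0171), and Fzd2, the co-receptor gene Lrp5, Ptk7 and the Dickkopf receptor gene Kremen1 rose by 0.87, 0.45, 0.71 and 0.69 (adjusted p from 0.000811 to 0.0188). After TAC, Fzd1, Lrp5, Ptk7 and Kremen1 were lower in T497A than in WT hearts (log2 fold changes of -0.56, -0.35, -0.60 and -0.47). Fzd5 and Fzd3 had WT effects of -0.37 ± 0.16 and -0.23 ± 0.17 that did not pass. The list's median was 0.19 in each genotype.

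Among 15 other secreted modulators, 6 had enough reads to be tested, and Dkk1, the best known Dickkopf gene, was not among them. In WT hearts Apcdd1, a membrane-bound WNT inhibitor, and Igfbp4, an insulin-like growth factor binding protein that also binds LRP6 and Frizzled, rose after TAC (0.77 ± 0.18, adjusted p = 0.00628, and 0.43 ± 0.14, adjusted p = 0.0374). Wif1, which binds WNT ligands directly, fell. It averaged 5.52 ± 1.51 CPM in T497A TAC hearts, 2.81 ± 0.457 in WT TAC, 7.94 ± 2.76 in T497A sham and 7.11 ± 2.25 in WT sham, a WT effect of -1.34 ± 0.31 (adjusted p = 0.00808). Secreted inhibitors thus moved in opposite directions in the same WT hearts, with Sfrp1, Sfrp2 and Frzb up and Sfrp5 and Wif1 down. In T497A hearts 0 of the 6 were called after TAC. Between genotypes after TAC, Apcdd1 and Rspo1, a secreted agonist, were lower in T497A than in WT hearts (-0.68 ± 0.18, adjusted p = 0.0314, and -2.38 ± 0.68, adjusted p = 0.045). Rspo1 was scarce, at 0.0625 ± 0.0296 CPM in T497A TAC hearts, 0.335 ± 0.110 in WT TAC, 0.180 ± 0.0168 in T497A sham and 0.165 ± 0.116 in WT sham.

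Genes of the pathway listed as acting inside the cell, and those of receptor turnover, showed few calls. Of 20 genes listed as intracellular transducers, Porcn, Wls and inhibitors such as Ctnnbip1 among them, all were tested. After TAC 0 were called in either genotype, with median log2 fold changes of 0.04 in T497A and 0.01 in WT hearts. The 2 largest rises and 2 largest falls in WT hearts were 0.26 ± 0.10 for Ctnnbip1, 0.24 ± 0.09 for Csnk1d, -0.19 ± 0.08 for Csnk1e and -0.14 ± 0.09 for Btrc. Of 4 tested genes for R-spondin receptors and receptor turnover 0 were called, with WT effects of 0.04 ± 0.09 for Lgr4, -1.42 ± 0.59 for Lgr6 and -0.34 ± 0.14 for Znrf3. Of 12 tested TCF/LEF factors and co-activators, 1 rose in WT hearts (Tle3, a co-repressor, 0.49 ± 0.16, adjusted p = 0.0396) and 1 fell (Bcl9, a co-activator, -0.34 ± 0.11, adjusted p = 0.0338), and 0 were called in T497A hearts. Tcf7l1 and Tle2 had WT effects of 0.30 ± 0.14 and -0.72 ± 0.28 that did not pass.

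Of 13 tested textbook beta-catenin targets other than the 10 genes, 6 rose and 1 fell after TAC in WT hearts, and 0 were called in T497A hearts. The rises were in Apcdd1, Myc, Bambi, Ccn4, Cd44 and Sox9, genes that other pathways also control. Cd44, a hyaluronan receptor of matrix-rich tissue, averaged 18.1 ± 2.88 CPM in T497A TAC hearts, 34.7 ± 6.79 in WT TAC, 14.2 ± 2.72 in T497A sham and 10.7 ± 3.28 in WT sham, a WT effect of 1.69 ± 0.23 (adjusted p = 0.00036). Myc, a growth regulator, rose by 1.46 ± 0.33 (adjusted p = 0.00638). Tnfrsf19, a receptor known as TROY, fell by 1.11 on the log2 scale (adjusted p = 0.00894), and was higher in T497A than in WT hearts after TAC (1.33, adjusted p = 0.00975), while Apcdd1 and Cd44 were lower (-0.68 and -0.94). Prox1 had a WT effect of -0.63 ± 0.22 (adjusted p = 0.0585). The median of the list was 0.26 in T497A and 0.68 in WT hearts, while Axin2 and Nkd1, which are targets too, had WT effects of -0.24 and 0.12. No gene of the 7 pathway lists was called between genotypes after sham or in the interaction.

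**Figure D4:**
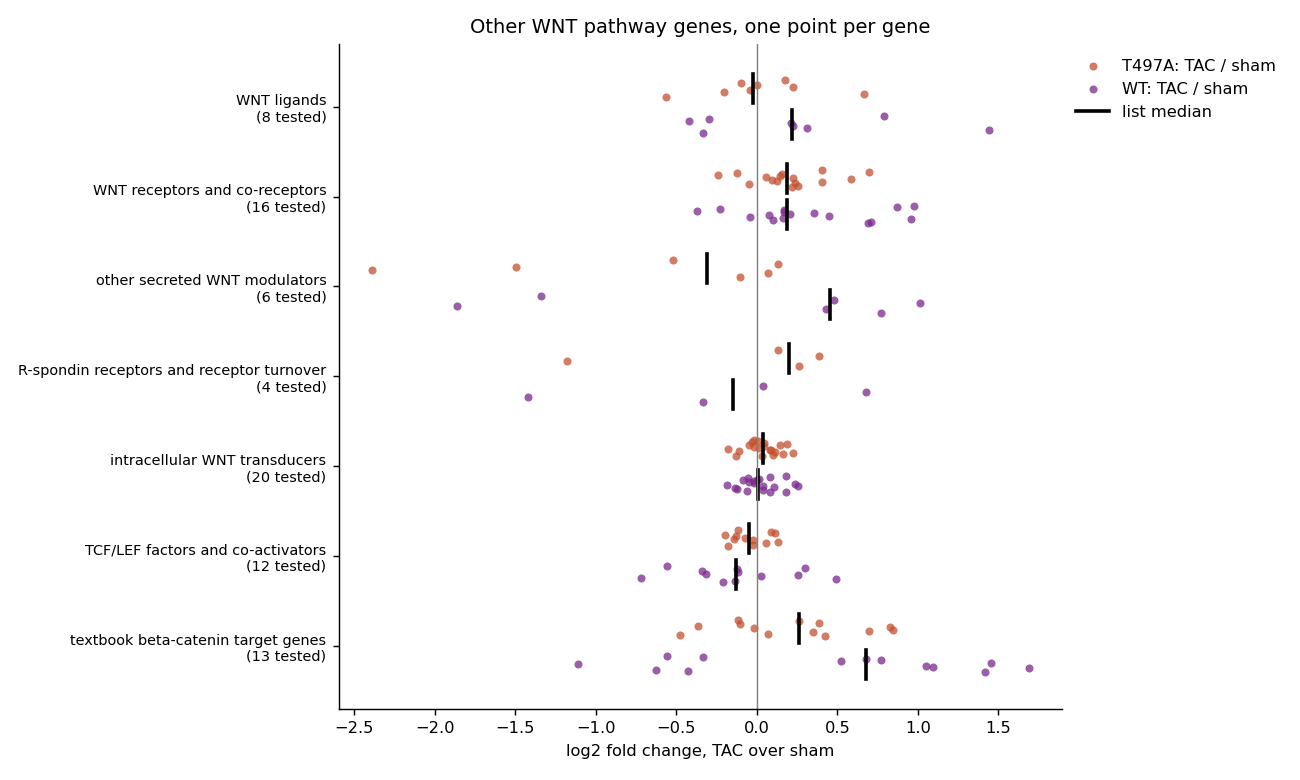
Log2 fold change of TAC over sham for every tested gene of 7 lists of other WNT pathway genes, 1 point per gene, in T497A hearts (orange, upper row of each list) and WT hearts (purple, lower row), with black bars for list medians. Intracellular transducers cluster at 0 in both genotypes, receptors and textbook targets have several WT points to the right, and secreted modulators lie on both sides.

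The genes whose levels followed 4 of the members most closely over the 12 libraries were found by the Pearson correlation of log2 CPM among 11868 genes. The libraries fall into 4 groups, and the members themselves were part of this choice, so r is a description. Nkd2 was tracked by Col8a1 (a collagen, r = 0.984), Pqlc3 (0.983), Grb10 (0.982), Endod1 (0.981) and Actn1 (0.980). Sfrp2 was tracked by Ssc5d (0.986), Nppa, the atrial natriuretic peptide gene (0.985), Tspo (0.984), Mxra8 (0.983) and Tspan17 (0.983). Frzb was tracked by Ctdspl (0.990), Arhgef40 (0.982), Mllt11 (0.970), Pmepa1 (0.970) and Fxyd6 (0.969), and Sfrp5 by Banf2os (0.941), Uqcc1 (0.935), P3h4 (0.932), Zkscan7 (0.928) and Jph1 (0.926). Col8a1 averaged 89.9 CPM in T497A TAC hearts, 260.0 in WT TAC, 38.1 in T497A sham and 42.8 in WT sham, the same order of TAC groups as Nkd2. By rank correlation 3 of the 5 genes stayed for Nkd2 and 1 of 5 for each of Sfrp2, Frzb and Sfrp5. Among the members, Sfrp1, Sfrp2, Frzb and Nkd2 correlated with each other at 0.92 or above in the pairs Sfrp1 with Nkd2 (0.94), Frzb with Nkd2 (0.93), Sfrp1 with Sfrp2 (0.92) and Sfrp2 with Frzb (0.92). The other pairs of these genes were lower, Sfrp2 with Nkd2 at 0.91 and Sfrp1 with Frzb at 0.87. Sfrp5 and Frzb ran opposite (-0.84).

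Ordered by level per kilobase in WT TAC hearts, Sfrp1 (10.2 CPM per kb), Dkk3 (9.37) and Frzb (9.05) led with ranges that overlapped, followed by Sfrp2 (5.66), Nkd2 (2.22), Axin2 (0.671), Nkd1 (0.334), Sfrp5 (0.247), Sfrp4 (0.0782) and Dkk2 (0.0406). In T497A TAC hearts the order was Dkk3 (5.68), Sfrp1 (5.19), Frzb (4.18), Sfrp2 (2.01), Nkd2 (0.703), Axin2 (0.629), Sfrp5 (0.302), Nkd1 (0.292), Sfrp4 (0.101) and Dkk2 (0.0627). Nkd2 stood clear of Axin2 in WT TAC hearts, at 2.03 to 2.56 against 0.653 to 0.692, and overlapped it in T497A TAC hearts, at 0.576 to 0.772 against 0.442 to 0.781. In T497A sham hearts the order was Dkk3 (6.17), Sfrp1 (4.30), Frzb (2.26), Sfrp2 (1.08), Sfrp5 (0.699), Axin2 (0.616), Nkd1 (0.413), Nkd2 (0.317), Dkk2 (0.0553) and Sfrp4 (0.0269). In WT sham hearts it was Sfrp1 (4.22), Dkk3 (4.12), Frzb (1.68), Sfrp5 (0.916), Sfrp2 (0.837), Axin2 (0.794), Nkd2 (0.421), Nkd1 (0.307), Dkk2 (0.0560) and Sfrp4 (0.0365). There the ranges of Axin2, Sfrp2 and Sfrp5 overlapped, as did those of Dkk2 and Sfrp4. The ranges of Dkk3, Sfrp1 and Frzb overlapped in T497A TAC hearts too, while in T497A sham hearts Dkk3, at 5.50 to 7.15, was above Sfrp1, at 3.97 to 4.95.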

How the data were processed

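A total of 12 libraries of mouse left ventricle RNA (KAPA mRNA HyperPrep) were sequenced single-end on an Illumina NextSeq500, per the labels' protocols. The authors deposited 1 table of raw read counts per gene, as whole numbers with no normalization. Per the submitters' processing notes reads were handled with Trim Galore 0.6.4, limma 3.50.3, Subread 1.6.3, featureCounts and STAR 2.7.3a, on mm10. For the annotation release, the use of strand and reads with several matches, settings were not given in the sources used here, so counts of overlapping genes are uncertain. Groups came from the titles. Since every title ends in the same replicate number, replicates carry accession-order numbers that pair nothing, and all libraries share 1 batch date. Chi-square per degree of freedom between replicates lay between 21.3 and 57.5, so no 2 libraries agreed within sampling noise.

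Genes kept by filterByExpr (minimum count 10, 15764 of 55401 genes) entered edgeR 4.0.16 under R 4.3.3 (TMM factors, glmQLFit with robust estimation, glmQLFTest) in 1 model over 4 groups, adjusted by Benjamini-Hochberg across all genes tested, at a threshold of 0.05. The SE is the size of the log2 fold change over the square root of F. CPM values and log2 CPM (prior count 2) were computed from the counts with TMM factors, and levels per kilobase used the union of exons in a GENCODE annotation of GRCm38. The common biological coefficient of variation was 17.2%. The fit was tested on simulated data first. DESeq2 1.42.0, limma-voom (limma 3.58.1), no low-count filter, only the groups compared and leaving out each library were tried, and halved counts and a term for the title number were added after the data were seen. The 10 genes and all lists were chosen with earlier results of these data known. From each pathway list, at most the 2 largest rises and 2 largest falls after TAC in WT among tested genes with a mean of at least 1 CPM were named by rule. Other list genes called after TAC in WT or between genotypes after TAC were named after their values were seen. Promoter words other than TCF/LEF were also chosen late.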

Additional observations from a re-analysis of the deposited data

Results flagged for a closer look

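For Sfrp1 the TAC effect differed between the genotypes by the interaction test, with an effect in T497A hearts minus that in WT hearts of -1.01 on the log2 scale (SE 0.19, adjusted p = 0.0258, edgeR's quasi-likelihood test). The groups behind it averaged 22.7 ± 4.64 CPM in T497A TAC hearts, 44.8 ± 4.32 in WT TAC, 18.8 ± 2.46 in T497A sham and 18.5 ± 1.33 in WT sham (SD, n = 3). It was the 1 called of the 9 genes tested for this difference. Leaving out any of 7 libraries gave an adjusted p between 0.051 and 0.0734, and the difference itself stayed between -1.17 and -0.88 over all 12 such fits.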

How the results depend on the processing

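No paired analysis was possible because every title ends in the same replicate number and the numbers given in accession order pair no libraries. Of the log2 fold changes of the 10 genes refitted under the alternatives, 1107 were unchanged, 39 lost a call, 6 gained one and 24 changed sign. All sign changes were in values that were not called. Unchanged means the same direction and side of the threshold. For the untested TAC effects and interaction of Nkd2, it means the same direction and a shift below the SD within groups. The count of genes changed after TAC in T497A hearts was 2 with DESeq2, and that of the interaction was 3 with DESeq2 (Sfrp1, Sfrp2 and Frzb), 2 with no low-count filter (Sfrp1 and Sfrp2) and 0 with the title number term. The count between genotypes after TAC was 2 with that term (Sfrp1 and Nkd2). Nkd2 is in every such count although its TAC levels chose it. Leaving out 1 library gave counts from 2 to 4 between genotypes after TAC and from 0 to 2 for the interaction. Dkk3 after TAC in WT and Frzb between genotypes after TAC also lost their calls with no low-count filter and with only the groups compared. The Sfrp2 interaction passed without T497A TAC replicate 2 (-2.24, adjusted p = 0.0133).

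Sign changes with limma-voom were in Axin2 for TAC in T497A (-0.0105), and in Dkk2 for genotype after sham (0.20) and for the average TAC effect (0.13). With the title number term they were in Dkk3 (0.0883) and Axin2 (-0.12) for TAC in T497A and Dkk2 for the average (0.13). Leaving out 1 library, Dkk2 ran from -0.94 to 0.49 for TAC in WT, from -0.18 to 0.47 for TAC in T497A, from -0.53 to 0.90 for genotype after sham, from -0.29 to 1.14 for the interaction and from -0.37 to 0.34 for the average. Nkd1 ran from -0.11 to 0.26 for TAC in WT, Dkk3 from -0.37 to 0.11 and Axin2 from -0.16 to 0.23 for TAC in T497A. Sfrp1 ran from -0.0876 to 0.0787 and Sfrp4 from -0.83 to 0.0066 for genotype after sham. Sfrp4 ran from -0.25 to 0.68 and Axin2 from -0.28 to 0.10 for genotype after TAC. The cause was not tested. Over all genes, calls for TAC in T497A went to 297 with DESeq2, 331 with no filter and 1 with the title number term, against 18, and those of the interaction to 859, 898 and 70, against 248. Calls between genotypes were 916 with only the groups compared and 662 with the title number term after TAC, against 1371. After sham they were 11 with DESeq2, 14 with no filter and 2 with each of limma-voom and the title number term, against 4. Calls for TAC in T497A were 0 with limma-voom and 0 with only the groups compared. Leaving out 1 library gave from 0 to 36 calls for TAC in T497A, from 463 to 1455 between genotypes after TAC and from 40 to 517 in the interaction.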

Other observations

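Counts in the table were even numbers more often than odd ones. The share of even counts was 66.2% among counts from 1 to 5, 75.5% from 6 to 20, 65.2% from 21 to 100, 57.7% from 101 to 1000 and 51.8% from 1001 to 10000. Each library showed it, with 74.4 to 76.9% even among counts from 6 to 20. Of the 12 counts of a gene, 12 were even for Sfrp5 and Dkk2, 11 for Sfrp4, 10 for Nkd1 and Nkd2, and 4 for Sfrp2. With every count halved and rounded up, 3969 genes were called after TAC in WT hearts against 3936 as deposited, and 1426 between genotypes after TAC against 1371. The labels describe single-end sequencing, and the cause was not tested.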
